A study of Mus musculus with 36 samples.

Results

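The interleukin-6 family cytokines that signal through gp130, and the STAT3 pathway below their receptor, were followed here through 9 genes: the ligands Lif, Il6 and Cntf, the receptor subunits Lifr, Il6ra, Il6st and Il31ra, the transcription factor Stat3 and the inhibitor Socs3. They were taken by symbol from a count table of 55487 genes, and all 9 were found, each under 1 symbol. The libraries came from C57BL/6 mice of 2 to 4 months, in which the unmyelinated optic nerve (UON, the optic nerve head), the myelinated optic nerve (MON) and the retina were dissected apart. Naïve mice that had no procedure on either side were compared with mice 3 D or 2 W after unilateral crush of the optic nerve, and with mice 3 D, 2 W or 6 W after microbeads were injected into 1 eye, a model of glaucoma in which the beads raise the pressure in the eye. Each of the 18 combinations of tissue and condition held 2 libraries, 1 of females and 1 of males, each a pool of RNA from 2 mice. Every SD below is therefore a spread between 2 pools that also differ in sex. Each SE and p-value comes from a fit over several groups with sex as a term. The same mice gave all 3 tissues, and the same naïve libraries served as controls for crush and for glaucoma.

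Gp130, the product of Il6st, is the signaling chain that the receptors of this family share. LIF and CNTF signal through gp130 paired with the LIF receptor, CNTF with a further subunit, CNTFR, while IL-6 first binds its own receptor chain, encoded by Il6ra. The kinases bound to these chains phosphorylate STAT3, which enters the nucleus and raises its target genes, among them Socs3, whose protein then blocks the receptor and its kinases. In the eye and optic nerve, LIF and CNTF are known as factors made by glia that bear on the survival of retinal ganglion cells and on the reaction of astrocytes and Müller glia to injury. IL-31RA belongs to the same family but pairs with the oncostatin M receptor and not with gp130.

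Library totals ranged from 16158723 to 78054205 counts, and the log2 levels of the 2 pools of a group correlated at 0.917 to 0.967 across genes. The naïve MON pools stood far apart in depth, at 78054205 counts in the female pool and 17757595 in the male pool, and their correlation was 0.932. The lowest correlation belonged to the UON 2 W after crush. The tissues held their markers: the 6 photoreceptor genes summed to 49839 to 62018 CPM (counts scaled to a common library total with TMM factors) in the retina and to 8.12 to 332 in either nerve region, and the 7 myelin genes to 16429 to 63420 CPM in the MON, 1426 to 16165 in the UON and 33.9 to 64.9 in the retina. In bulk tissue, fewer cells of a type and less RNA per cell cannot be told apart.

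In naïve tissue, 5 of the 9 genes were more abundant in both regions of the optic nerve than in the retina, and Lif, Il6, Lifr and Il31ra were not called. On the TPM scale (a transcript level per length and per library total, as the authors' program gave it), Stat3 led the 9 genes in each tissue, at 179 ± 18.1 in the UON, 116 ± 22.9 in the MON and 26.2 ± 4.24 in the retina (SD, n = 2 pools). Il6st came second in both nerve regions, at 91.1 ± 4.34 TPM in the UON and 62.3 ± 19.0 in the MON, and behind Lifr in the retina, at 12.03 ± 0.318. Cntf followed in the nerve, at 36.9 ± 5.97 TPM in the UON and 44.5 ± 1.87 in the MON, and stood at 6.69 ± 0.184 in the retina. The second place in the retina belonged to Lifr, at 18.7 ± 3.08 TPM, and Lifr was the only member whose mean TPM was highest in the retina. In CPM its mean was 66.4 in the MON and 63.3 in the retina.

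**Figure D1:**
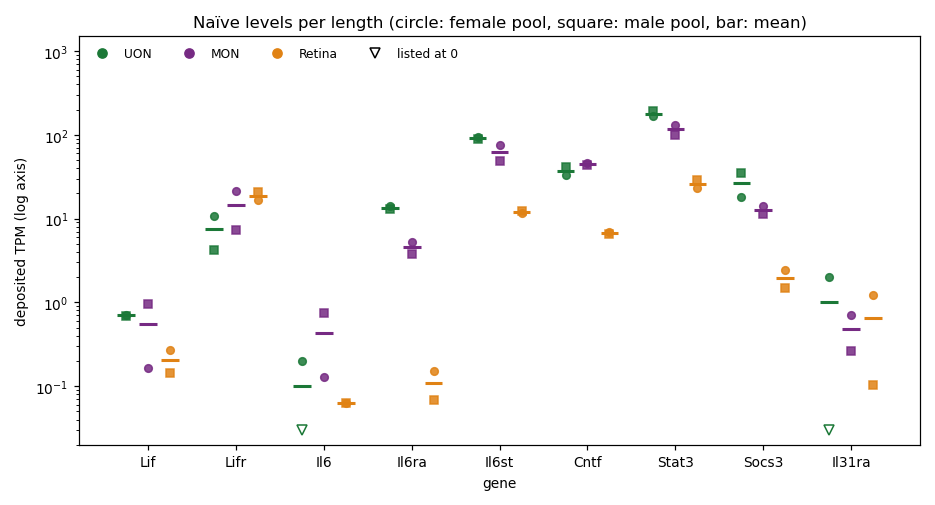
Deposited TPM (log axis) of the 9 genes in the naïve UON, MON and retina, with a circle for the female pool, a square for the male pool and a bar for their mean. Stat3 had the highest mean in each tissue, and Il6ra lay at 0.150 and 0.0690 TPM in the retina against 14.0 and 12.9 in the UON (female, then male pool).

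Il6ra, Il6st, Cntf, Stat3 and Socs3 passed the test against the retina in both nerve regions. A gene was called where edgeR's quasi-likelihood test gave an adjusted p under 0.05 and the log2 fold change was beyond 1. By that rule 5 of 9 members were higher in the UON than in the retina, where 31.7% of all genes tested were called and 18.2% were called higher. The same 5 of 9 were higher in the MON than in the retina, where 27.6% of all genes were called and 16.7% were called higher. Il6ra, the IL-6 binding chain, had counts of 2052 and 1791 in the naïve UON (female pool, then male pool, as throughout), 1138 and 354 in the MON and 33 and 13 in the retina. Both nerve regions lay far above the retina. The log2 fold change was 6.54 ± 0.44 (SE) for UON against retina (edgeR adjusted p = 5.75e-05) and 5.42 ± 0.43 for MON against retina (edgeR adjusted p = 0.000123).

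Socs3, the feedback inhibitor, had 25.6 and 53.2 CPM in the naïve UON, 23.0 and 19.0 in the MON and 2.44 and 1.70 in the retina. It was higher by 4.17 ± 0.45 on the log2 scale in the UON and by 3.33 ± 0.44 in the MON than in the retina (edgeR adjusted p = 0.000438 and 0.00118). The log2 differences of Il6st, Stat3 and Cntf from the retina were 3.39, 3.04 and 2.75 in the UON and 2.95, 2.65 and 3.21 in the MON, with edgeR adjusted p from 8.94e-05 to 0.000394. All of these calls held when any 1 of the 6 naïve libraries was left out. Between UON and MON no member was called, although edgeR called 9.63% of all genes there, and the closest was Il6ra, with a log2 difference of 1.12 ± 0.34 toward the UON (edgeR adjusted p = 0.0905, called by DESeq2 with adjusted p = 0.0167). Lifr had a log2 difference of -1.52 ± 0.54 between UON and retina (edgeR adjusted p = 0.0665), which DESeq2 called (adjusted p = 0.00822). Without the female pool of the naïve retina or of the naïve UON the difference was -2.47 and -2.01, with 1 pool left in that tissue. Over all genes, the median log2 difference between UON and retina was -0.17. DESeq2 called 37.7% of all genes between UON and retina and 16.6% between UON and MON.

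Lif and Il6 were scarce in every naïve tissue. Lif had 67 and 69 counts in the naïve UON, 27 and 5 in the MON and 27 and 12 in the retina. Il6 had 12 and 0 counts in the UON, 13 and 19 in the MON and 4 and 3 in the retina, and it fell below the count filter in the fits within the retina, so it was not tested there against naïve. Between the naïve tissues it was tested and not called, with log2 differences of 0.66 ± 2.77 for UON against retina, 3.34 ± 2.70 for MON against retina and -2.69 ± 3.08 for UON against MON (edgeR adjusted p = 0.877, 0.411 and 0.663).

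Against naïve tissue, edgeR called Lif and Socs3 in the MON after crush and no member elsewhere. Over the 15 comparisons with naïve, 130 tests of members gave 4 calls. At 3 D after crush, 2 of 9 members were called in the MON, both higher, where 4.26% of all genes were called and 3.61% were called higher. At 2 W, the same 2 of 9 were called higher, where 2.72% of all genes were called and 2.13% were called higher. No member was called in the UON, where 0.0281% of all genes were called at 2 W after crush and 0 genes in the other 4 conditions, in which 451 to 868 genes had an unadjusted p under 0.05 and DESeq2 called 33 to 210. The lowest adjusted p of a member there was 0.520, 4 of 45 unadjusted p were under 0.05, and DESeq2 also called no member. None was called in the retina, where 0.0221% and 0.313% of genes were called at 3 D and 2 W after crush and 0.00429%, 0 and 0.00858% at 3 D, 2 W and 6 W of glaucoma, although 15 of 40 unadjusted p of members were under 0.05 and DESeq2 called 5. At 2 W of glaucoma in the retina, 1465 genes had an unadjusted p under 0.05 and DESeq2 called 99. None was called in the MON in glaucoma, where edgeR called 0 genes at each time (1854, 2017 and 1127 genes with an unadjusted p under 0.05 at 3 D, 2 W and 6 W) and DESeq2 called 443, 511 and 67. Of the members there, 3 of 27 unadjusted p were under 0.05, and DESeq2 called Lif and Socs3 at 3 D.

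**Figure D2:**
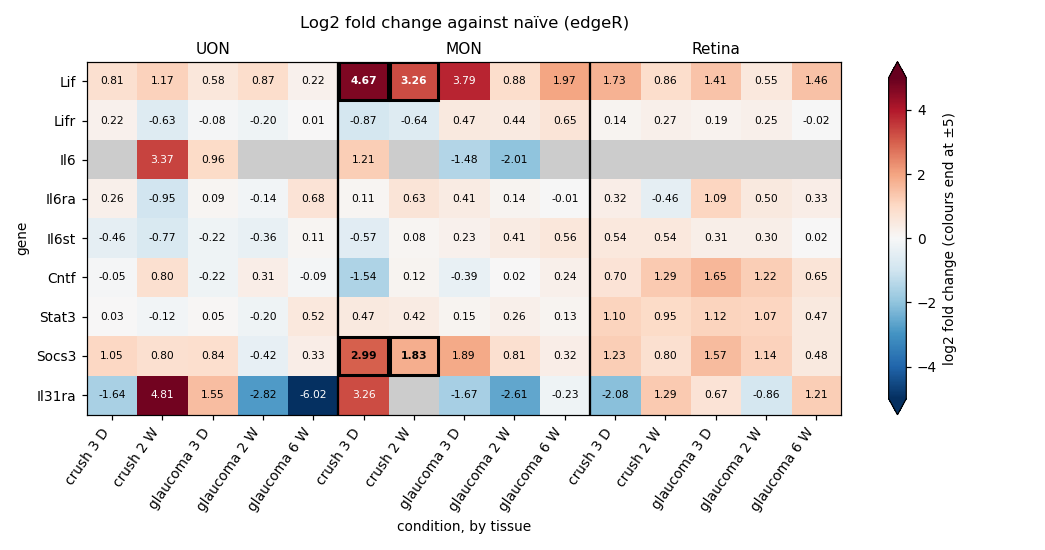
Log2 fold change against naïve for each of the 9 genes (rows) in 15 comparisons (columns, by tissue), from edgeR. Boxed cells in bold passed the test, grey cells were not tested or had 0 counts in both pools of a group, and the 4 boxed cells are Lif and Socs3 in the MON after crush.

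Lif, the cytokine that signals through the LIF receptor and gp130, rose in the crushed MON from a level of a few counts. The MON libraries gave 0.430 and 0.300 CPM in naïve mice, 9.69 and 7.25 at 3 D after crush and 5.54 and 1.84 at 2 W. All 4 crush pools lay above both naïve pools, an order that 22% of all genes with 15 or more counts showed at 3 D and 21.7% at 2 W. The log2 fold change was 4.67 ± 0.65 at 3 D (edgeR adjusted p = 0.0147) and 3.26 ± 0.63 at 2 W (edgeR adjusted p = 0.0444).

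The Lif calls rest on very few naïve counts. Both naïve pools lay below the count filter of this fit, and Lif passed it through its crush pools. Without the female naïve MON pool the adjusted p from edgeR at 3 D was 0.116, and without the male pool it was 0.0655, while the fold change stayed between 4.30 and 5.02 in all 6 refits. The call at 2 W was lost without either naïve pool and also without the female crush pool (edgeR adjusted p = 0.0598). All 5 counts of the male naïve pool lay on Lif-203, a processed transcript of 390 bases, and none on the coding transcripts Lif-201 and Lif-202. Because that transcript is short, the TPM of this pool, 0.947, stood above the 0.163 TPM of the female naïve pool and above the 0.771 TPM of the male pool at 2 W. On the TPM scale both pools at 3 D, 4.20 and 3.18, still lay above both naïve pools, whereas those at 2 W, 2.42 and 0.771, overlapped with them.

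In glaucoma, Lif in the MON had 8.31 and 3.00 CPM at 3 D, 1.78 and 0.0941 at 2 W and 0.947 and 1.47 at 6 W. Both pools were above both naïve pools at 3 D and 6 W, as were those of 17.7% and 20% of all genes. The change at 3 D, 3.79 ± 1.15 on the log2 scale, did not pass edgeR's test (unadjusted p = 0.0120, adjusted p = 0.479), whereas DESeq2, fitted with the same terms, called it (adjusted p = 0.0178) beside 2.3% of all genes. In the UON, Lif had 1.5002 and 1.65 CPM in naïve mice and 1.36 to 4.62 over the 10 injured pools, and the edgeR log2 fold changes of 0.22 to 1.17 all had adjusted p of 0.679 or more. Both pools lay above both naïve pools in 4 UON conditions, all but 6 W of glaucoma. The share of all genes with that order was not counted in those conditions, so no rise of Lif is read from it. At 6 W of glaucoma, where Lif overlapped with naïve, 15.2% of all genes had that order. In the retina, the naïve pools had 0.523 and 0.265 CPM and the injured pools 0.367 to 2.09, and the lowest unadjusted p was 0.0391, at 3 D after crush (log2 fold change 1.73 ± 0.67, edgeR adjusted p = 0.774). Both retinal pools lay above both naïve pools at 3 D and 2 W after crush and at 6 W of glaucoma (18.1%, 22.5% and 20.6% of all genes). Both MON pools at 3 D after crush held more Lif than any UON or retina library.

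Cntf, a cytokine made by astrocytes and Müller glia, stood lower in the MON 3 D after crush in 1 pool more than in the other, and higher in every injured retina. The MON gave 31.3 and 30.2 CPM in naïve mice, 18.7 and 3.71 at 3 D after crush and 23.9 and 38.6 at 2 W. Both pools at 3 D lay below both naïve pools, as for 28% of all genes, but they stood far apart, and the log2 fold change of -1.54 ± 0.68 was not called by edgeR (unadjusted p = 0.0551, adjusted p = 0.249). DESeq2 called it with an adjusted p of 0.0435, beside 12.3% of all genes. Leaving out the female pool at 3 D gave -3.14, and leaving out the male or the female pool at 2 W gave -1.78 and -1.77. Each of these refits left 1 pool in a group.

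The 7 astrocyte markers moved with Cntf in these libraries. Their summed level was 4652 and 3144 CPM in the naïve MON, 2429 and 835 at 3 D after crush and 4046 and 6109 at 2 W, and none of the 7 was at 0 in any of these groups. The MON pool with the least Cntf was also the one with the lowest astrocyte sum, and the part of the astrocyte markers in the Cntf value was not tested. Cntf also lies within the gene Zfp91 on the same strand, and a Zfp91 transcript that spans the Cntf locus (Zfp91-203) had 0 to 440 counts per MON library, and how reads were shared between them was not tested. Zfp91 had 852 and 2267 counts at 3 D after crush, against 4492 and 1746 in the naïve MON.

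In the retina, Cntf had 3.51 and 3.14 CPM in naïve mice, 4.79 and 5.87 at 3 D and 8.59 and 8.10 at 2 W after crush. In glaucoma it had 7.15 and 13.0 CPM at 3 D, 11.6 and 4.83 at 2 W and 7.25 and 3.57 at 6 W. Both injured pools lay above both naïve pools in all 5 conditions, which held for 18.1% and 22.5% of all genes at 3 D and 2 W after crush and for 17.6%, 20.9% and 20.6% at 3 D, 2 W and 6 W of glaucoma. EdgeR called none: the log2 fold changes were 0.70, 1.29, 1.65, 1.22 and 0.65, with unadjusted p of 0.0347, 0.00215, 0.0106, 0.0382 and 0.220 and adjusted p from 0.156 to 0.882. DESeq2 called the change at 2 W after crush (adjusted p = 0.0203), beside 1.51% of all genes.

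Il6, the cytokine that gives the family its name, stayed at 34 counts or fewer in all but 1 library and passed edgeR's test in no comparison. Its highest count, 232, came from the male UON pool at 2 W after crush, whose female partner had 4. The MON had 34 and 29 counts at 3 D after crush, 0 and 0 at 2 W, 29 and 13 at 3 D of glaucoma, 17 and 0 at 2 W and 0 and 0 at 6 W. DESeq2 called the MON at 2 W after crush lower (adjusted p = 0.0401), beside 8.93% of all genes, and edgeR did not (adjusted p = 0.251). No fold is given against groups at 0. The highest count in any retinal library was 8.

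Among the receptor chains no change against naïve passed edgeR's test in any tissue. Il6st, encoding gp130, had 441 and 445 CPM in the naïve UON, 380 and 265 at 3 D after crush and 247 and 276 at 2 W. Both crush pools were below both naïve pools at 3 D and at 2 W (18.4% and 23.1% of all genes), with log2 fold changes of -0.46 ± 0.32 and -0.77 ± 0.32 (unadjusted p = 0.199 and 0.0484, edgeR adjusted p = 1 and 0.537). The 7 astrocyte markers in the UON, none of them at 0, summed to 10145 and 10323 CPM in naïve mice, 9108 and 5169 at 3 D and 6387 and 7543 at 2 W after crush, and their part in the Il6st values was not tested. In the MON Il6st had 369 and 267 CPM in naïve mice, and its log2 fold changes ran from -0.57 at 3 D after crush to 0.56 at 6 W of glaucoma. In the retina it had 37.3 and 44.6 CPM in naïve mice and stood above both naïve pools in 4 of 5 conditions (17.6% to 22.5% of all genes in any 1 of them), with 59.98 and 56.9 CPM at 3 D and 61.9 and 60.3 at 2 W after crush. The retinal log2 fold changes after crush were 0.54 ± 0.14 and 0.54 ± 0.14, below the fold limit, with unadjusted p of 0.00752 and 0.00706 and edgeR adjusted p of 0.555 and 0.267.

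Lifr had 56.6 and 69.9 CPM in the naïve retina and 58.4 to 82.8 over the 10 injured retinal pools, and its retinal log2 fold changes lay between -0.02 and 0.27. In the nerve its pools disagreed, at 46.6 and 13.2 CPM in the naïve UON and 105 and 27.6 in the naïve MON, and no injured group passed the test against naïve. In counts not scaled for depth, Lifr-201 had 384 and 337 in the naïve UON, 1208 and 203 in the naïve MON and 180 to 525 over the 12 UON libraries. Lifr-203, which has the same 3276 coding bases but 9655 exon bases against 4143, had 1670 and 211 in the naïve UON and 5382 and 251 in the naïve MON, and in the UON it ranged from 0 to 1740 and was at 0 in 3 libraries. Lifr-203 took 80.3% of all Lifr transcript counts.

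Il6ra had 45.9 and 42.8 CPM in the naïve UON, and its largest departures there were 32.7 and 14.98 CPM at 2 W after crush and 70.6 and 73.2 at 6 W of glaucoma. The first group lay below both naïve pools, as for 23.1% of all genes, and the second above them, as for 15.2%. The log2 fold changes were -0.95 ± 0.43 and 0.68 ± 0.29 (unadjusted p = 0.0642 and 0.0493, edgeR adjusted p = 0.560 and 1). In the MON it ran from 15.3 to 37.4 CPM over the 12 libraries, and in the retina from 0.180 to 1.17 CPM, so the scarcity of this chain in the retina held in all 12 retinal libraries.

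Il31ra, the IL-31 receptor chain, had its highest MON counts at 3 D after crush, but its counts cannot be separated from those of a pseudogene. The MON libraries had 77 and 8 counts in naïve mice, 110 and 399 at 3 D after crush and 0 and 0 at 2 W. Both pools at 3 D lay above and both at 2 W below the naïve pools (22% and 24.2% of all genes). EdgeR gave adjusted p of 0.0723 at 3 D, with a log2 fold change of 3.26 ± 0.76, and of 0.0504 at 2 W, where no fold is given because both pools were at 0, a count that allows up to 3. DESeq2 called both (adjusted p = 0.00252 and 0.00180), beside 12.3% and 8.93% of all genes.

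Most Il31ra counts, 85.5% over the 36 libraries, lay on Il31ra-204, a transcript annotated for nonsense-mediated decay whose 5′ end lies inside the processed pseudogene Gm3226 on the same strand (GRCm38, chr13:112593743-112595084). The coding transcript Il31ra-201 never passed 16 counts in a MON library. Gm3226 had 6595 and 1739 counts in the naïve MON and 24 and 29 at 3 D after crush, the 2 libraries in which Il31ra was highest, and it had 865 to 7667 in the other MON libraries. The only other library with so little Gm3226 was the male retina at 6 W of glaucoma, with 22 counts of Gm3226 and 74 of Il31ra. How the reads of this locus were shared between the 2 genes was not tested, and the Il31ra values are uncertain for that reason.

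**Figure D3:**
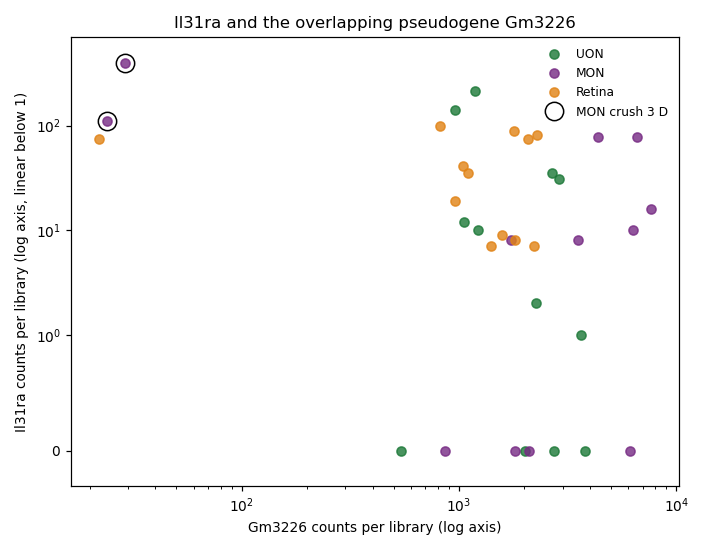
Counts of Il31ra (vertical, log axis, linear below 1) and of the overlapping pseudogene Gm3226 (horizontal, log axis) in each of the 36 libraries, coloured by tissue, with rings on the 2 MON libraries at 3 D after crush. The ringed libraries held 24 and 29 counts of Gm3226, and all but 3 libraries held 542 or more.

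Stat3, the transcription factor that all these receptors feed, did not pass the test in any tissue and stood higher in every injured retina than in naïve retina. In the retina it had 35.3 and 40.5 CPM in naïve mice, 86.9 and 73.5 at 3 D after crush and 73.5 and 76.9 at 2 W. In glaucoma it had 97.6 and 67.7 CPM at 3 D, 77.4 and 83.9 at 2 W and 54.2 and 50.6 at 6 W. All 10 injured pools lay above both naïve pools, an order held by 18.1%, 22.5%, 17.6%, 20.9% and 20.6% of all genes in the 5 conditions. The ratios of the mean CPM to naïve were 2.12, 1.98, 2.18, 2.13 and 1.38 in that order.

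These retinal Stat3 values fell on either side of significance with the method. EdgeR gave log2 fold changes of 1.10 ± 0.15 and 0.95 ± 0.15 after crush and 1.12 ± 0.22, 1.07 ± 0.22 and 0.47 ± 0.21 in glaucoma, with unadjusted p of 0.000260, 0.000587, 0.000995, 0.00125 and 0.0614. After adjustment over all genes the edgeR p were 0.143, 0.0883, 0.464, 0.521 and 0.865, and none was called. DESeq2 called the change at 3 D after crush (adjusted p = 1.36e-06) and at 3 D and 2 W of glaucoma (adjusted p = 0.00121 and 0.00420), beside 0.633%, 0.669% and 0.442% of all genes. Without the male pool of the naïve retina, of 3 D or of 2 W, the edgeR log2 fold change at 3 D after crush was 1.24, 1.32 and 1.10. Each of these refits left 1 pool in a group. At 2 W after crush the fold change stayed under the fold limit.

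Alongside, the 7 microglia markers in the retina summed to 50.3 and 43.2 CPM in naïve mice and to 55.6 to 114 in the injured pools, with none of the 7 at 0 in any group. The 7 retinal ganglion cell markers summed to 458 and 394 CPM in naïve retina and to 96.8 and 95.3 at 2 W after crush. Their part in the Stat3 and Cntf values was not tested. The 5 Müller glia markers summed to 2368 and 2208 CPM in naïve retina and 1904 to 2624 in the injured pools.

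In the MON, Stat3 had 267 and 210 CPM in naïve mice, 314 and 307 at 3 D after crush and 305 and 314 at 2 W, and its 5 log2 fold changes there were 0.13 to 0.47 (edgeR adjusted p of 0.385 or more). In the UON the values at 6 W of glaucoma, 472 and 454 CPM, exceeded the naïve 300 and 341, as for 15.2% of all genes (log2 fold change 0.52 ± 0.24, unadjusted p = 0.0676, edgeR adjusted p = 1). Stat3-202, with 2166 coding bases, took 18.4% of all Stat3 transcript counts, and Stat3-201 and Stat3-203, with 2307 and 2310, took 53.3% and 21.8%.

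Socs3 showed the clearest response of the 9 genes, in the MON after crush. The naïve MON had 23.0 and 19.0 CPM, the MON at 3 D after crush 155 and 157, and at 2 W 91.1 and 56.7. The 2 pools at 3 D nearly coincided, and all 4 crush pools stood above both naïve pools (22% of all genes at 3 D and 21.7% at 2 W). Socs3 was higher by 2.99 ± 0.30 on the log2 scale at 3 D (edgeR adjusted p = 0.00737) and by 1.83 ± 0.29 at 2 W (edgeR adjusted p = 0.0308), a ratio of mean CPM of 7.45 and then 3.52. The call at 3 D was lost only without the female naïve pool, which left the shallow male pool as the sole control (edgeR adjusted p = 0.0669), and that at 2 W without either naïve pool.

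**Figure D4:**
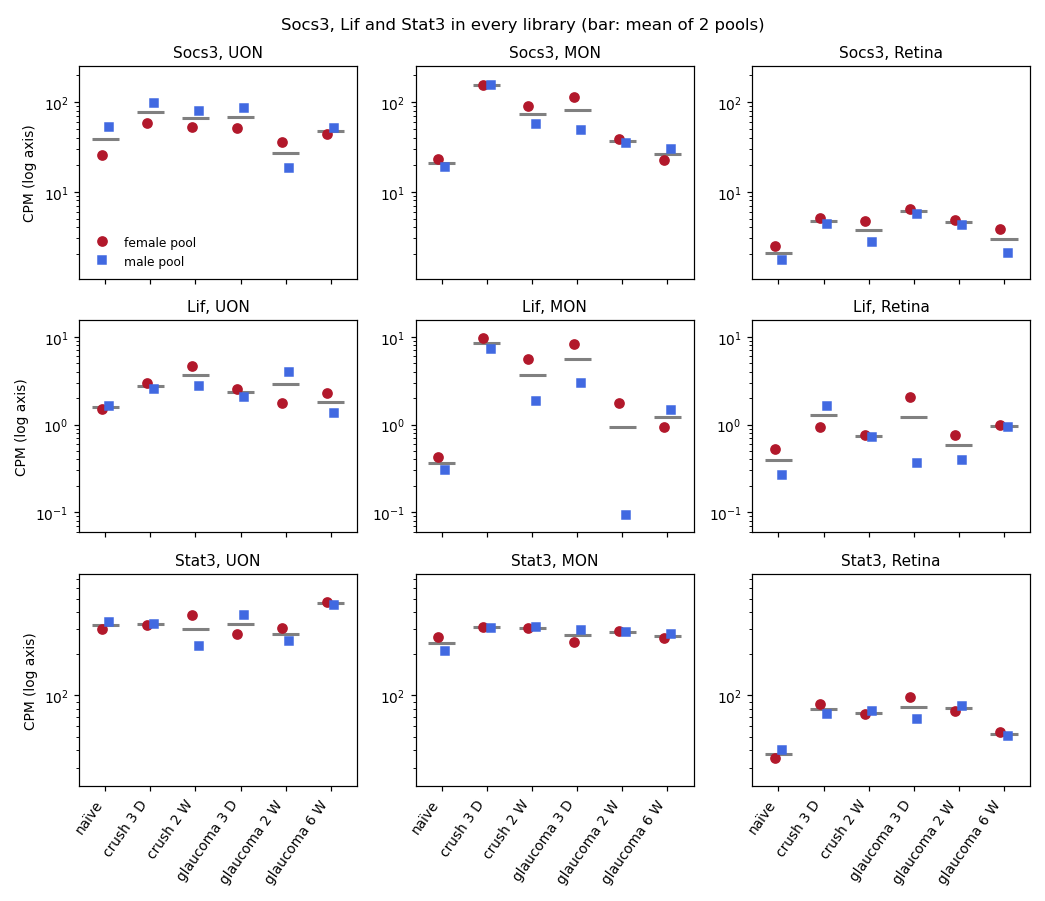
CPM (log axis) of Socs3, Lif and Stat3 in each library by tissue and condition, with a circle for the female pool, a square for the male pool and a bar for the mean of the 2. Socs3 and Lif are highest in the MON at 3 D after crush, and all 10 injured retinas lie above the naïve retinas for Stat3.

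In the MON in glaucoma, Socs3 had 115 and 48.9 CPM at 3 D, 38.7 and 35.5 at 2 W and 22.6 and 30.4 at 6 W. Both pools were above naïve at 3 D and 2 W (17.7% and 19.6% of all genes), and at 6 W they overlapped with it. The log2 fold change at 3 D was 1.89 ± 0.39 (unadjusted p = 0.00167, edgeR adjusted p = 0.357), and DESeq2 called it (adjusted p = 0.000721). At 2 W and 6 W it was 0.81 ± 0.38 and 0.32 ± 0.38 (edgeR adjusted p = 0.612 and 0.892).

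The retina, where Socs3 was lowest, had 2.44 and 1.70 CPM in naïve mice, 5.04 and 4.40 at 3 D and 4.75 and 2.75 at 2 W after crush, and 6.42 and 5.68, 4.81 and 4.28, and 3.81 and 2.07 at 3 D, 2 W and 6 W of glaucoma. Both pools exceeded both naïve pools in 4 of 5 conditions, all but 6 W of glaucoma, as did those of 17.6% to 22.5% of all genes in any 1 of them. The largest log2 fold change, 1.57 ± 0.32 at 3 D of glaucoma, had an unadjusted p of 0.00141 and an edgeR adjusted p of 0.484, and DESeq2 called it (adjusted p = 0.0203). In the UON, the naïve pools themselves differed, at 25.6 and 53.2 CPM. Socs3 there reached 58.5 and 98.4 CPM at 3 D after crush, a log2 fold change of 1.05 ± 0.30 (unadjusted p = 0.0107, edgeR adjusted p = 1).

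The promoter of Socs3 is shown because Socs3 is a known target of STAT3 and was the member that changed most firmly. The window runs from 250 bases before to 50 after the RefSeq start of transcription (GRCm38, chr11:117969317-117969616, minus strand, read 5′ to 3′), with the single match to TTCNNNGAA in capitals. That pattern, the same on both strands, is the core of the element that STAT proteins bind. The match begins 154 bases before the start.
Socs3 promoter: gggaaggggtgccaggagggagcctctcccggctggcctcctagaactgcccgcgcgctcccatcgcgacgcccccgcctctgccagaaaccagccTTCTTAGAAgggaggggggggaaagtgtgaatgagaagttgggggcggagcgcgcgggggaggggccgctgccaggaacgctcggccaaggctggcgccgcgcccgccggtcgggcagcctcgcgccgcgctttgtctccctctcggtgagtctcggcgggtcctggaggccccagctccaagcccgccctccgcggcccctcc
No match to the stricter form, TTCCNGGAA, which overlaps the first by definition, was found in this window. The transcript that carried 99.7% of Socs3 counts, Socs3-201, starts downstream of the window in the annotation.

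All 9 members had at least 1 window in the RefSeq promoter table. TTCNNNGAA occurred in the windows of Socs3 and Il31ra, and TTCCNGGAA in that of Il31ra alone. The Il31ra window holds the start of Il31ra-201, with 13.2% of Il31ra transcript counts, and not that of Il31ra-204, with 85.5%. Lifr-203, with 80.3% of Lifr transcript counts, starts outside both Lifr windows. Of all 32851 windows, 8.30% held TTCNNNGAA and 1.15% held TTCCNGGAA. None of the windows of Lif, Stat3, Il6st, Lifr, Il6ra, Cntf and Il6 held either, which says only that these letters are not within those 300 bases.

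Because Lif and Socs3 were called in the MON and not elsewhere, the difference between tissues was tested itself. At 3 D after crush, the response of Socs3 was larger in the MON than in the retina by 1.74 ± 0.34 on the log2 scale, just short of the threshold (edgeR adjusted p = 0.0525, DESeq2 adjusted p = 0.000806), where edgeR called 0.882% of all genes. This difference was 2.00 without the female MON pool at 3 D. It was 1.75 and 1.74 without the male or the female MON pool at 2 W, and each refit left 1 pool in a group. Against the UON, the Socs3 response in the MON was larger by 1.91 ± 0.54 (unadjusted p = 0.00471, edgeR adjusted p = 0.430) and that of Lif by 3.79 ± 0.96 (unadjusted p = 0.00232, edgeR adjusted p = 0.345, DESeq2 adjusted p = 0.00537). For Stat3 the difference was the other way, with a response at 3 D of glaucoma that was smaller in the MON than in the retina by 0.92 ± 0.29 (unadjusted p = 0.00768, edgeR adjusted p = 0.737). Between UON and MON edgeR called 0.012% of all genes at 3 D after crush and 0 at 2 W, and for the UON against the retina 0.0115% and 0.0689%. For the MON against the retina it called 0.622% at 2 W, and it called 0 genes in the 9 comparisons of glaucoma. Of 135 such tests of members, edgeR called none (28 unadjusted p under 0.05) and DESeq2 called 5, so by edgeR the responses of the 3 tissues were not shown to differ. Of all genes, DESeq2 called 7.67% and 5.64% for the MON against the retina at 3 D and 2 W after crush. It called 1.42% for the UON against the MON at 3 D and 2.1% for the UON against the retina at 2 W after crush.

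Crush and glaucoma were compared with each other at 3 D and at 2 W, which needs no naïve library. In the MON, Socs3 was higher after crush than in glaucoma by 1.03 ± 0.35 at 3 D and by 0.99 ± 0.35 at 2 W on the log2 scale (unadjusted p = 0.0138 and 0.0170, edgeR adjusted p = 0.377 and 0.5001). Lif was higher after crush by 0.82 ± 0.85 and 2.29 ± 0.91 (unadjusted p = 0.355 and 0.0310, edgeR adjusted p = 0.783 and 0.592). In the retina, Stat3 differed between the models by -0.03 ± 0.19 at 3 D and -0.11 ± 0.19 at 2 W. Neither edgeR nor DESeq2 called any of the 52 tests of members, of which 9 had an unadjusted p under 0.05, and at 3 D and 2 W edgeR called 0.0162% and 0.0485% of all genes in the MON, 0 and 0.0418% in the UON and 0.0081% and 0.113% in the retina.

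Over time, Socs3 in the MON had a log2 difference of -1.16 ± 0.28 between 2 W and 3 D after crush (unadjusted p = 0.00374, edgeR adjusted p = 0.155, DESeq2 adjusted p = 0.0152). In glaucoma the difference between 6 W and 3 D was -1.57 ± 0.39 (unadjusted p = 0.00461, edgeR adjusted p = 0.950, DESeq2 adjusted p = 0.0192). Stat3 in the retina had a log2 difference of -0.65 ± 0.21 between 6 W and 3 D of glaucoma (unadjusted p = 0.0171, edgeR adjusted p = 0.587). EdgeR called none of 78 tests between times for the members (15 unadjusted p under 0.05) and DESeq2 called 4, the other 2 being Il6 and Il31ra at 2 W against 3 D after crush in the MON. DESeq2 called 5.95% of all genes in that comparison and 0.854% between 6 W and 3 D of glaucoma in the MON. EdgeR called 0.075% of all genes between 2 W and 3 D after crush in the MON. Without the female pool at 2 W the Socs3 difference there was -1.45, with 1 pool left at 2 W.

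The rest of the pathway was read from lists of 47 further genes, chosen with earlier results of these data known. In the MON at 3 D after crush, 8 were called higher and 1 lower of 44 tested, and at 2 W 9 were called higher and none lower, beside the 3.61% and 2.13% of all genes called higher. In the retina 2 of 41 were called, both higher, at 2 W after crush. EdgeR called none in the other 12 comparisons with naïve, where DESeq2 called 0 to 9 genes of these lists in each.

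Among the 9 other ligands, Clcf1, a partner cytokine that acts through the CNTF receptor, had 5.47 and 4.99 CPM in the naïve MON and 45.2 and 29.7 at 3 D after crush. It rose by 2.91 ± 0.35 on the log2 scale (edgeR adjusted p = 0.0114) and stood at 10.6 and 9.81 CPM at 2 W. Ebi3, a subunit of IL-27, rose by 2.80 ± 0.49 at 2 W (edgeR adjusted p = 0.0379). At 3 D the median of the log2 fold changes was 2.26 over the 6 ligands that passed the count filter (-0.0049 over all genes tested). A gene that is scarce in naïve tissue can pass that filter through its crush pools alone. The median is therefore a description of those 6 ligands and not of all 9.

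Of the 4 other receptor subunits, Cntfr, which makes the receptor specific for CNTF, went from 82.1 and 30.6 CPM in the naïve MON to 4.03 and 3.71 at 3 D after crush. It fell by 3.70 on the log2 scale (SE 0.51, edgeR adjusted p = 0.0145) and stood at 14.0 and 21.6 CPM at 2 W. This was the only fall that edgeR called among the 47 genes, of which DESeq2 called 2 lower in the MON at 3 D. The astrocyte marker sums given above for Cntf were also below naïve at 3 D, at 2429 and 835 CPM. At 2 W they were 4046 and 6109 CPM and overlapped with the naïve 4652 and 3144. Cntfr at 2 W lay below both naïve pools, as for 24.2% of all genes. The part of the astrocyte markers in the Cntfr values was not tested. Osmr, the oncostatin M receptor, had 40.1 and 29.6 CPM in the naïve MON and 160 and 175 at 2 W, a rise of 2.34 ± 0.33 (edgeR adjusted p = 0.0229).

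**Figure D5:**
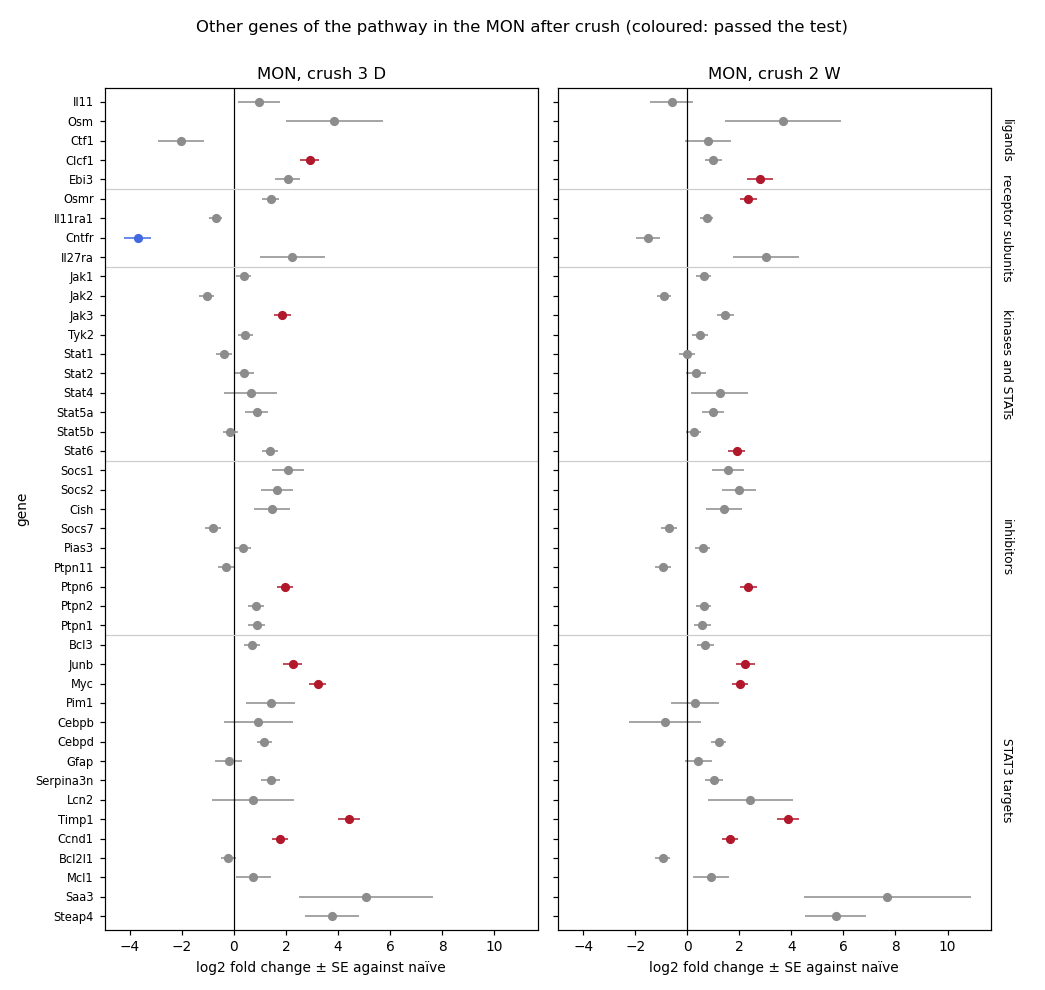
Log2 fold change with its SE (edgeR) of 43 of the 44 tested genes of the pathway other than the 9 members, in the MON at 3 D and 2 W after crush against naïve, grouped by role. Coloured points passed the test: 7 higher and 1 lower (Cntfr) at 3 D, and 8 higher at 2 W.

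Of the 10 kinases and other STATs, 1 was called at each time in the MON: Jak3, a kinase of immune cells, rose by 1.86 ± 0.32 at 3 D (edgeR adjusted p = 0.0252) and Stat6, the transcription factor of IL-4 signaling, by 1.90 ± 0.32 at 2 W (edgeR adjusted p = 0.0347). Of 9 other inhibitors, Ptpn6, a phosphatase of blood-derived cells, was called at both times, with 1.97 ± 0.32 and 2.34 ± 0.32 (edgeR adjusted p = 0.0206 and 0.0215). Among the 15 STAT3 target genes, 4 were called at 3 D and the same 4 at 2 W. They were Timp1, an inhibitor of matrix proteases, with 4.43 ± 0.42 and 3.87 ± 0.41, the transcription factors Myc and Junb, and Ccnd1, which drives the cell cycle. Their median over the 15 genes was 1.41 at 3 D and 1.21 at 2 W, and they respond to other pathways as well as to STAT3.

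Markers of immune cells were also higher in the MON after crush. The monocyte and neutrophil sum was higher at 3 D than at 2 W, and the microglia sum was higher at 2 W than at 3 D. The 7 monocyte and neutrophil markers summed to 2.59 and 4.39 CPM in naïve mice, 50.5 and 98.5 at 3 D after crush and 26.6 and 9.99 at 2 W, with Ly6g at 0 in each of these groups. Ccr2 and Chil3 were called higher at 3 D, by 5.53 ± 0.85 and 8.005 ± 1.43 (edgeR adjusted p = 0.0178 and 0.0276). The 7 microglia markers, of which none was at 0, summed to 1314 and 1243 CPM in naïve mice, 2202 and 2396 at 3 D and 5170 and 3175 at 2 W. Their part in the rise of Socs3, Lif and the other genes was not tested.

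In the retina, 12 of the 13 tested STAT3 target genes had log2 fold changes above 0 at 3 D after crush and 11 of 13 at 2 W, with medians of 1.61 and 0.69. In glaucoma 15, 13 and 15 of 15 did so at 3 D, 2 W and 6 W, with medians of 1.90, 1.71 and 1.31. The median over all genes lay between -0.0042 and 0.012 in these 5 comparisons. The list was chosen with earlier results of these data known, and after crush it lacks the genes under the count filter. These counts and medians are for that reason a description without a test. EdgeR called Serpina3n, a protease inhibitor of reactive glia, and Cebpd at 2 W after crush, with 3.24 ± 0.38 and 1.34 ± 0.17 (edgeR adjusted p = 0.0349 and 0.0441). Serpina3n had 1.82 and 1.44 CPM in naïve retina and 14.7 and 16.0 at 2 W. In glaucoma it reached 21.8 and 30.6 CPM at 3 D, 49.1 and 9.61 at 2 W and 17.6 and 16.7 at 6 W, above both naïve pools each time (17.6%, 20.9% and 20.6% of all genes), and edgeR called none of these (adjusted p = 0.346, 0.362 and 0.554).

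The genes whose pattern was most like that of a member were searched among 18309 genes over the 18 group means, after the mean of each tissue was taken off. For Socs3 they were C5ar1 (r = 0.948), Sirpb1c (r = 0.928) and Xpnpep1 (r = 0.918). For Lif they were Ptger2, Tm4sf19 and Clec4d, at r of 0.939, 0.915 and 0.900. Stat3 was followed less closely, by Tmem268, Tmem30a and Adcy4, at 0.803, 0.801 and 0.787. Cntf was most like Fxyd1 (r = 0.917), Cnrip1 and Cryzl2, Il6st like R3hcc1l (r = 0.901), Aldh6a1 and Rabgap1, Lifr like Sncb (r = 0.867) and Ubqln1, and Il6ra like Trpv4 (r = 0.783), Htra3 and Rasl10b. The points share libraries and depth, so these values are a description without a test, and for Il6 and Il31ra the counts were too sparse to give one.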

How the data were processed

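RNA of 4 mice per group was pooled by sex, giving 36 paired-end libraries. Per the labels and the methods of the study, the authors used HISAT2 (v2.2.1) for alignment to the GRCm38 build and StringTie (v1.3.0) for quantification, with the Gencode M25 annotation. The deposited gene and transcript counts are estimated counts that the authors derived from coverage with a StringTie script. The authors also deposited FPKM and TPM per library, of which 40 values just below 0 are in the files and were set to 0. FPKM and TPM were used as other measures of level, with no test.

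Tests were run on the counts with edgeR (v4.0.16, R 4.3.3), with TMM factors, filterByExpr (minimum count 10, minimum total 15), a quasi-likelihood fit with sex as a term and Benjamini-Hochberg adjustment over all genes tested. For comparisons with naïve and between times, each fit held the naïve libraries and all times of 1 model in 1 tissue, as in the study's own DESeq2 models. Tissues were compared over the 6 naïve libraries, the 2 models over the 12 libraries of a tissue, and responses between tissues over both tissues' libraries of 1 model. A call needed a log2 fold change beyond 1 together with an adjusted p under 0.05. DESeq2 (v1.42.0), other size factors, no filter, other libraries in the fit, no sex term, no fold limit and the omission of each library were alternatives. The omission of a library left 1 pool in its group, so a call gained in such a refit is not read as a result. With 2 pools per group, an SD is a spread between pools that also differ in sex. The p-values and SE come from the fit, in which sex is a term and the spread is estimated over all its groups and shared across genes. CPM are counts divided by library totals that were scaled with TMM factors over the 36 libraries. The estimated counts are not numbers of reads, and the depth, 16158723 to 78054205 counts per library, limits the precision of genes with few counts.

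Annotation of overlapping genes came from GENCODE M21 (GRCm38), with coordinates that equal those of the files for all 9 members, and promoter windows from RefSeq (GRCm38.p6). The members and gene lists were chosen with earlier results of these data known. All 9 members were named in each comparison, other list genes where called against naïve, and for each member the 3 most alike genes. A called list gene and a most alike gene that these rules name are not reported here, though the counts and medians of the lists include the former. Serpina3n in glaucoma and the transcripts were added after their values were seen. Libraries of the same mice were checked for pairing: the female-minus-male differences correlated between tissues at a median r of 0.0426 (-0.0603 to 0.238 over 18 pairs). Scripts were tested on simulated data.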

Additional observations from a re-analysis of the deposited data

How the results depend on the processing

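The 10 calls between naïve tissues stood under every alternative, with 10 to 13 calls over the settings and 10 to 14 over the 6 refits without 1 library. In the MON against naïve, 4 calls became 10 with DESeq2 and 8 with no filter on low counts, 3 with other size factors or with all 12 libraries of the tissue in the fit (both lost Lif at 2 W), and 0 to 7 without 1 library. In the retina, 0 became 5 with DESeq2 (Stat3 in 3 comparisons, Socs3 and Cntf), 1 with no filter, and 0 to 1 without 1 library. In the UON it stayed 0 in each, as it did between crush and glaucoma except for 1 call without 1 library. Differences between tissues went from 0 to 5 with DESeq2, 1 with other size factors, 5 with no filter and 0 to 2 without 1 library. Those between times went from 0 to 4 with DESeq2, 4 with no filter, 1 without the sex term and 0 to 3 without 1 library.

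Without the sex term, the replicate block of the main design, the MON count was 6 and the 10 naïve calls stood. With the pool of mice as a replicate block, the differences between tissues again gave 0 calls, so the pairing of tissues changed no call. The labels number no replicates, and the pools of 1 sex in different groups are different mice. No called value changed its direction under any of these settings. Of the values that were not called, sign changes numbered 12 without the sex term, 10 with other libraries in the fit, 7 with the pool block, 3 with no filter, 2 each with DESeq2 and other size factors, and 326 over the refits without 1 library. The order of the 9 genes within each naïve tissue was the same by FPKM as by TPM. Within a library these 2 scales differ by 1 common factor, so this check could hardly have come out otherwise. Every call against naïve in the MON rests on 2 naïve pools of unequal depth. Why DESeq2 called more than edgeR was not tested. Beside its member calls in the MON, DESeq2 called 12.3% and 8.93% of all genes at 3 D and 2 W after crush and 2.3% at 3 D of glaucoma.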
